A study of Mus musculus with 6 samples.

Results

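The MiT/TFE family of basic helix-loop-helix leucine zipper transcription factors comprises Tfec, Mitf, Tfeb and Tfe3, and these 4 genes were taken by symbol from the 46603 genes of the count table of renal CD11B+ cells. The family was chosen by the measured CPM of Tfec, which were lower in PTEC DN RAR mice than in Cre– controls, so the genotype difference of the members is given as a description, without a test. CD11B is the integrin alpha M chain found on monocytes, macrophages, granulocytes and NK cells, and the cells were isolated from whole kidneys with magnetic beads. All animals were male mice aged 10–12 weeks, killed at day 3 after bilateral ischemia-reperfusion–induced AKI (IRI-AKI) with 28 minutes of renal pedicle clamping, so no uninjured kidney is included. The 3 PTEC DN RAR mice were PEPCK CRE+ and the 3 Cre– controls PEPCK CRE-, and both groups carried the allele Rosa26-LSL-RARaT403X. This allele makes a truncated, dominant-negative retinoic acid receptor (RAR) alpha only after Cre has acted. PEPCK-Cre recombines in proximal tubular epithelial cells (PTECs), so the driver is a tubular and not a leukocyte one. The study bred the allele to homozygosity in PTEC DN RAR mice.

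Gene counts summed to 29318041 to 40741507 reads in Cre– control libraries, against 42113139 to 46517005 reads in those of PTEC DN RAR mice, with 1 library per mouse. Mitochondrial transcripts made up 5.03% to 8.77% of the counts of Cre– controls, against 10.38% to 12.08% of those of PTEC DN RAR mice, and the part of this in the results was not tested. Itgam, which encodes CD11B itself, averaged 1897 ± 139 CPM (read counts scaled to library size, after TMM; SD, n = 3) in Cre– controls, against 1217 ± 207 CPM in PTEC DN RAR mice (log2 fold change -0.64 ± 0.14, SE; edgeR adjusted p = 0.00818). Csf1r, the receptor for the macrophage growth factor CSF1, averaged 3406 ± 161 and 3363 ± 232 CPM, and Ncr1, a marker of NK cells, stayed below 1 CPM in every library. Among granulocyte markers Ly6g stayed below 2 CPM, whereas S100a9 averaged 269 ± 102 CPM in Cre– controls, against 105 ± 21.1 CPM in PTEC DN RAR mice.

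MiT/TFE proteins bind DNA as dimers with one another, at E-box sequences with the core CACGTG and at the related M-box TCATGTG. TFEB and TFE3 drive the coordinated lysosomal expression and regulation (CLEAR) gene network of lysosome and autophagy genes. They are held in the cytoplasm when mTORC1 phosphorylates them at the lysosome, and they enter the nucleus in starved or damaged cells after dephosphorylation by calcineurin. MITF, the master regulator of melanocytes, also acts with TFE3 in osteoclasts, and TFEC is largely restricted to the macrophage lineage, where the lineage factor PU.1 and IL-4 acting through STAT6 are known to induce it.

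Tfec (ENSMUSG00000029553) lies on the minus strand at chr6:16833373-16898441 of GRCm38. The 250 bases upstream of its RefSeq start site (GRCm38.p6, chr6:16898442-16898691, minus strand) are shown because Tfec is the member with the lowest level and the widest genotype difference. Capitals mark AGGAAGT, which starts 71 bases upstream of the start site and contains the ETS core GGAA, and TTCNNNNGAA, the spacing preferred by STAT6, which starts 200 bases upstream.
Tfec: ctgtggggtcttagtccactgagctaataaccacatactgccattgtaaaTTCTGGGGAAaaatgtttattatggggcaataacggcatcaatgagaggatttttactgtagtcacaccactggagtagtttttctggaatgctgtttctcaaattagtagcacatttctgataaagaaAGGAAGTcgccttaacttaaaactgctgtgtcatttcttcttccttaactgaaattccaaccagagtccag
Both of these motifs were picked after the window had been read. On either strand, AGGAAGT is present in the windows of 10.7% of the 27025 genes in the RefSeq promoter table and TTCNNNNGAA in those of 8.01%. Windows run from 250 bases before to 50 bases after a start site. None of the 9 windows of the 4 members held the core CACGTG, the longer TCACGTG or the M-box on either strand. Outside Tfec, 1 of 2 Tfe3 windows held AGGAAGT and 1 of 3 Tfeb windows held TTCNNNNGAA.

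Tfec was expressed at 27.2, 17.9 and 31.6 CPM in the 3 Cre– controls, against 6.07, 6.06 and 7.59 CPM in the 3 PTEC DN RAR mice. The groups did not overlap, with every Cre– control well above the PTEC DN RAR mouse with the most Tfec. These values rest on 535 to 1063 reads per Cre– library and 254 to 358 reads per PTEC DN RAR library, where 3 reads correspond to at most 0.102 CPM. The fitted log2 fold change was -1.96 ± 0.21 (SE), a 3.89-fold lower level in PTEC DN RAR mice, and of the other tested genes 54 had a lower log2 fold change. The Cre– controls were also the more variable group for Tfec, at 25.6 ± 6.95 CPM against 6.57 ± 0.880 CPM (SD, n = 3). In bulk samples such as these, fewer cells of a type that express Tfec and less Tfec RNA per cell cannot be told apart.

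Mitf (ENSMUSG00000035158, chr6:97807052-98021349, plus strand) followed the same direction with a smaller difference. Its level was 63.5, 60.7 and 62.8 CPM in Cre– controls, against 35.8, 29.5 and 39.9 CPM in PTEC DN RAR mice. The Cre– controls were tightly grouped and all lay above the 3 PTEC DN RAR mice, which spread more widely. The log2 fold change was -0.83 ± 0.11, or 1.78-fold lower.

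Tfeb (ENSMUSG00000023990, chr17:47737030-47792419, plus strand) was the member with a higher level in PTEC DN RAR mice. It measured 55.4, 45.8 and 46.0 CPM in Cre– controls, against 66.7, 57.4 and 63.0 CPM in PTEC DN RAR mice, a log2 fold change of 0.34 ± 0.10. The groups did not overlap, but the gap was narrow, between 55.4 CPM in Cre– control 1 and 57.4 CPM in PTEC DN RAR mouse 2.

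Tfe3 (ENSMUSG00000000134, chrX:7762560-7775202, plus strand) had the highest counts of the family and the smallest genotype difference. Its values were 133, 122 and 132 CPM in Cre– controls, against 115, 105 and 113 CPM in PTEC DN RAR mice, with a log2 fold change of -0.21 ± 0.08. All 3 PTEC DN RAR mice were below all 3 Cre– controls under TMM scaling, whereas scaling to 24 pan-leukocyte genes turned the log2 fold change to 0.01. That scaling also moved the median over all tested genes from 0.04 to 0.26.

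All 4 members passed the filter on low counts that left 15440 genes for testing, and the genotypes did not overlap for any of the 4. Over all tested genes the genotypes did not overlap for 53.4%, with PTEC DN RAR mice lower for 24.2% and higher for 29.2%. Nothing about the family is read from these counts, because the genotype contrast served to choose it.

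**Figure D1:**
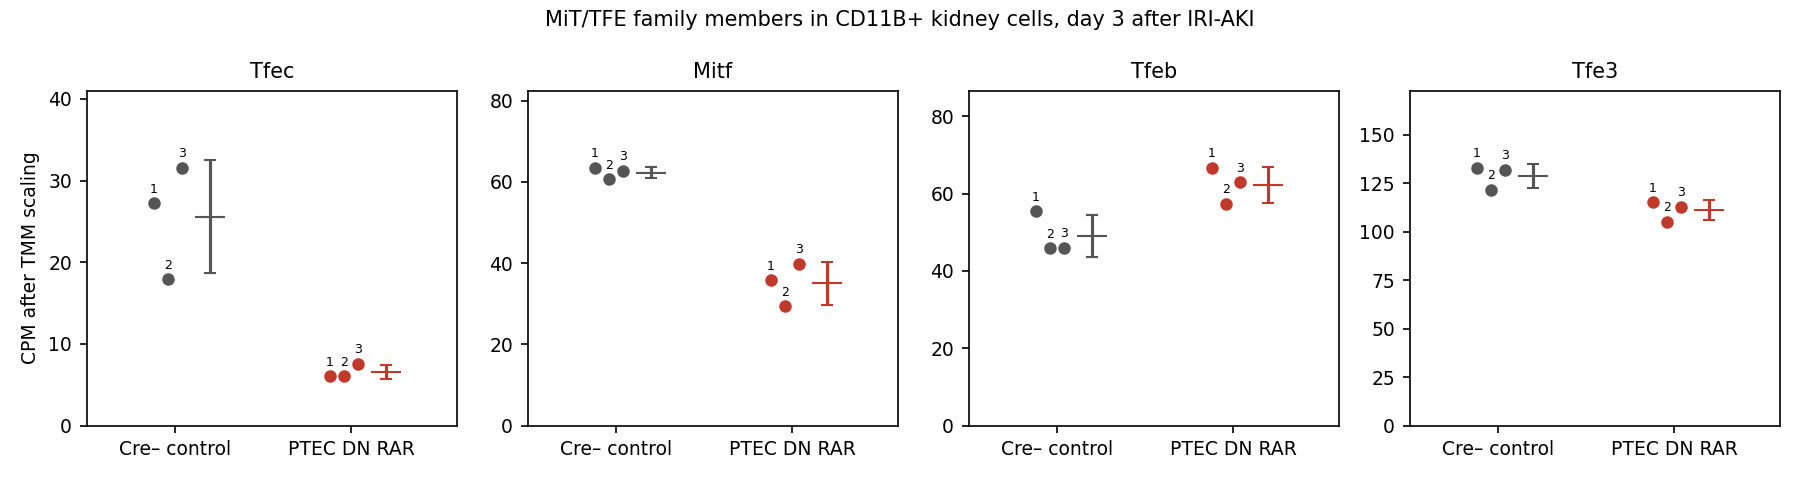
CPM after TMM scaling (y axis, linear from 0) of Tfec, Mitf, Tfeb and Tfe3 in each library by genotype (x axis). Points are mice with their replicate number, and horizontal lines and bars beside them are the mean ± SD (n = 3). Tfec and Mitf were lower and Tfeb higher in all 3 PTEC DN RAR mice; Tfe3 was also lower here, a direction that turned under pan-leukocyte scaling.

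To compare members with each other, CPM were divided by merged exon length, giving CPM per kilobase of exon (RPKM). In Cre– controls the RPKM level of Tfe3 was 13.9 ± 0.675 (SD, n = 3), that of Mitf 10.1 ± 0.235, that of Tfeb 8.66 ± 0.970 and that of Tfec 4.57 ± 1.24. In PTEC DN RAR mice the RPKM levels were 12.0 ± 0.571 for Tfe3, 11.0 ± 0.824 for Tfeb, 5.66 ± 0.851 for Mitf and 1.17 ± 0.157 for Tfec. On merged exon length Tfe3 ranked highest and Tfec lowest in both genotypes, while Mitf and Tfeb exchanged places, an exchange not seen with the length of the longest transcript.

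Members were also compared within each mouse by two-sided exact sign-flip permutation tests of log2 RPKM, adjusted over the 6 pairs of members. The pairs with Tfec, whose CPM served to choose the family, are counted in this adjustment but not given. With them counted, an adjusted p of 0.0375 is smaller than it would be over the pairs shown alone. The smallest p that 6 mice allow is 0.03125. Mitf was below Tfe3 in 6 of 6 mice, with a mean log2 difference in RPKM of -0.78 ± 0.36 (SD; exact p = 0.03125, adjusted p = 0.0375), from -0.49 to -0.42 in Cre– controls and -1.25 to -0.92 in PTEC DN RAR mice. Tfeb was below Tfe3 in 6 of 6 mice, with a mean log2 difference in RPKM of -0.41 ± 0.32 (exact p = 0.03125, adjusted p = 0.0375), and the differences were -0.81 to -0.55 in Cre– controls but only -0.17 to -0.08 in PTEC DN RAR mice. This order of Tfeb and Tfe3 depended on the length used: with the longest transcript in place of merged exons, Tfeb lay above Tfe3 in 5 of 6 mice, by 0.32 on average. Mitf and Tfeb did not differ beyond their spread over all 6 mice (mean log2 difference in RPKM -0.37 ± 0.66, exact p = 0.25, adjusted p = 0.25). Mitf was above Tfeb in all 3 Cre– controls, by 0.07 to 0.32 on the log2 scale, and below it in all 3 PTEC DN RAR mice, by log2 differences of -1.09 to -0.78. With the longest transcript Mitf lay below Tfeb in 6 of 6 mice, Cre– controls included, by a mean log2 difference of -1.30 (exact permutation test, adjusted p = 0.0375).

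The summed RPKM of the family was 37.2 ± 2.64 in Cre– controls, against 29.8 ± 2.17 in PTEC DN RAR mice. As a share of this sum, Tfec was 12.4%, 9.38% and 14.8% in Cre– controls, against 3.49%, 3.96% and 4.36% in PTEC DN RAR mice. The share of Mitf averaged 27.1% ± 1.34 and 18.9% ± 1.69, so that Tfec and Mitf both took a smaller part of the family in PTEC DN RAR mice. The share of Tfeb averaged 23.3% ± 1.85 and 36.9% ± 1.07, and that of Tfe3 37.4% ± 0.908 and 40.3% ± 1.21. Shares do not depend on how libraries are scaled to each other, but they do depend on the exon lengths used. They belong to the same contrast that chose the family, and no test is given.

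**Figure D2:**
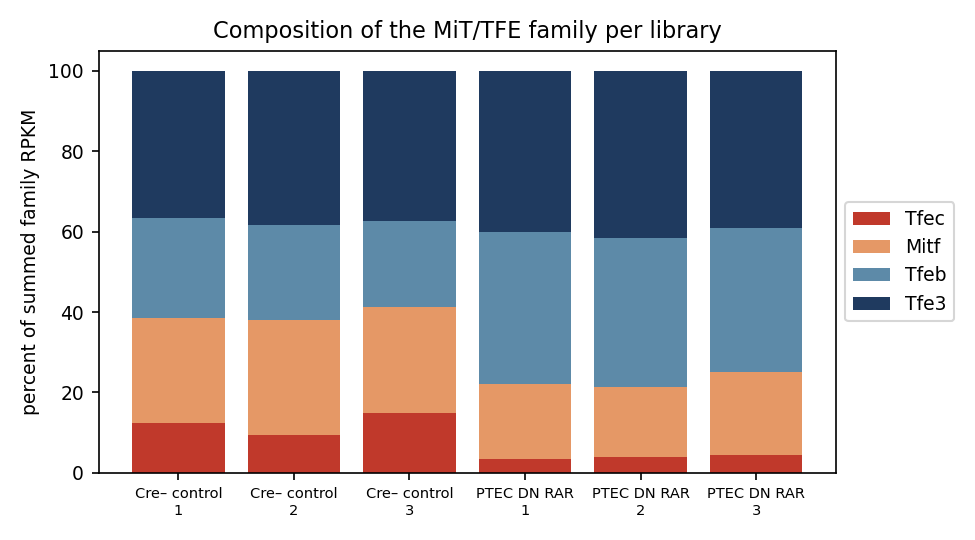
Percent of summed family RPKM (y axis) taken by each MiT/TFE member in each of the 6 libraries (x axis). Colours are Tfec, Mitf, Tfeb and Tfe3 from the bottom up; the Tfec band spans 9.38% to 14.8% in Cre– controls, against 3.49% to 4.36% in PTEC DN RAR mice.

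Because CD11B+ preparations mix leukocyte types, Tfec was set against marker genes of leukocyte types, as Tfec CPM per 1000 CPM of summed markers. Against the 24 pan-leukocyte genes it was 1.68, 1.07 and 1.98 in Cre– controls, against 0.409, 0.422 and 0.598 in PTEC DN RAR mice. The groups stayed apart, with a log2 difference of -1.70. Against 9 resident macrophage markers (complement C1q, Adgre1, MHC class II and others) the Tfec ratio averaged 0.836 ± 0.259 and 0.146 ± 0.0459, a log2 difference of -2.51. The sum of these markers moved mainly with Cd74, at 9817 ± 1540 and 19599 ± 4114 CPM, and H2-Ab1, while the genotypes overlapped for C1qa, C1qb, C1qc and Adgre1. The ratio to dendritic cell and B cell markers was lower in all 3 PTEC DN RAR mice (log2 differences of -2.06 and -2.38), and that to NK cell markers overlapped (-1.23).

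Against the 8 markers of infiltrating monocytes, the Tfec ratio was 7.07, 4.43 and 8.30 in Cre– controls, against 3.69, 3.74 and 4.78 in PTEC DN RAR mice. Here the groups overlapped, since PTEC DN RAR mouse 3 was above Cre– control 2, and the log2 difference was -0.66. The ratio to 10 neutrophil markers overlapped as well, from 34.2 to 85.8 in Cre– controls, against 23.7 to 45.8 in PTEC DN RAR mice. Mitf per 1000 CPM of monocyte markers went the other way, at 15.0 to 16.5 in Cre– controls, against 18.2 to 25.2 in PTEC DN RAR mice.

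**Figure D3:**
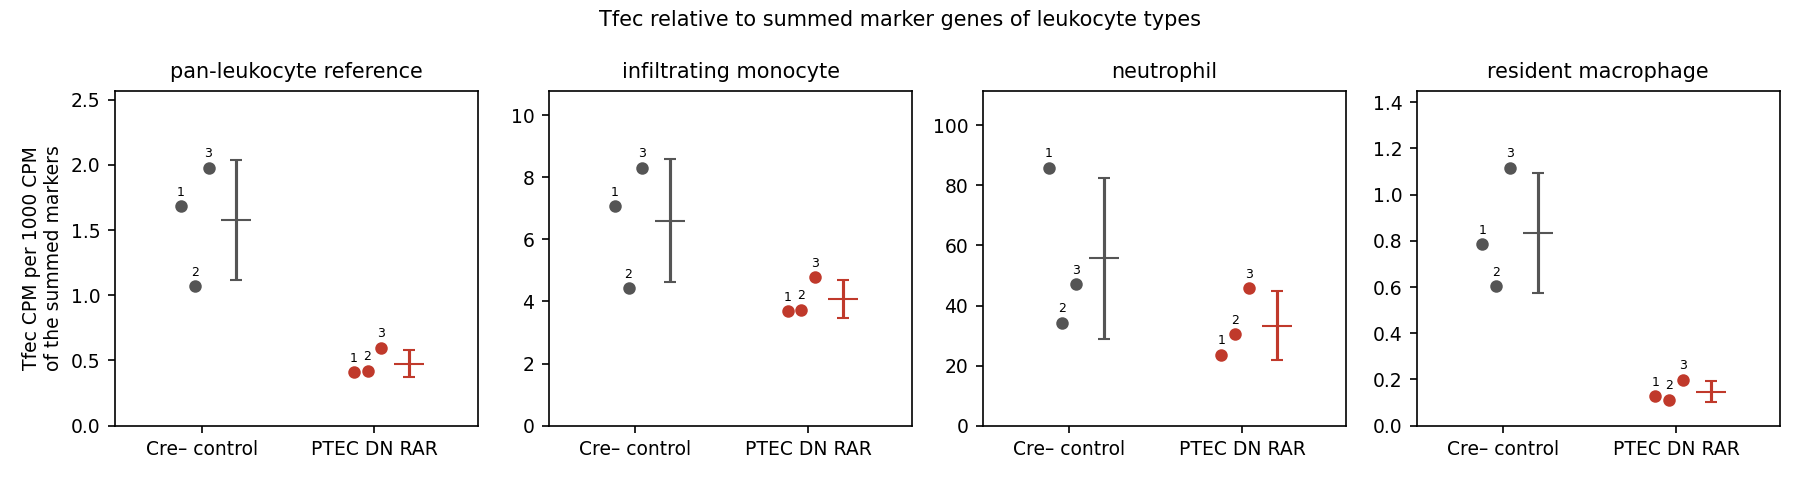
Tfec CPM per 1000 CPM of summed marker genes (y axis, linear from 0) for pan-leukocyte, infiltrating monocyte, neutrophil and resident macrophage markers, by genotype (x axis). Points are mice with their replicate number, and lines and bars are the mean ± SD (n = 3). The genotypes are apart for pan-leukocyte and resident macrophage markers and overlap for monocyte and neutrophil markers.

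Monocyte markers themselves were lower: 7 of 8 tested genes passed at an edgeR adjusted p under 0.05, none rose, and the sum ran from 3800 to 4053 CPM in Cre– controls, against 1587 to 1643 CPM in PTEC DN RAR mice. Of the 10 neutrophil markers 6 were lower and none higher, with sums of 317 to 670 and 166 to 256 CPM. Resident macrophage markers included 3 of 9 that were higher, with sums of 28269 to 34634 and 38255 to 54111 CPM. Tubular markers were all higher, 12 of 12 for the proximal tubule (sums of 587 to 796 and 2043 to 3136 CPM) and 6 of 6 for the thick ascending limb (1177 to 1576 and 4473 to 8526 CPM), as were 7 of 7 endothelial markers (66.3 to 98.6 and 197 to 240 CPM). Of the remaining lists, dendritic cell markers had 1 lower and 2 higher of 7, B cell markers 2 higher of 5, NK cell markers none of 5, and pan-leukocyte genes 9 lower of 24 (sums of 15954 to 16751 and 12694 to 14841 CPM). For comparison, 17.1% of all 15440 genes were lower and 23.6% higher at this threshold, 40.6% in all. Scaled to pan-leukocyte genes, 4.43% were lower and 32.6% higher. The part of these shifts in cell markers in the values of the MiT/TFE genes, their regulators and their targets was not tested.

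Genes that act on the family or respond to it were followed in 10 lists holding 151 genes, of which 143 were tested. Across the lists, 36 genes were lower and 13 higher, and the median log2 fold change was -0.13, against 0.04 over all genes. The counts of each list are to be read against the 17.1% lower and 23.6% higher of all 15440 genes. Scaling to pan-leukocyte genes raised the medians of 8 lists from below 0 to above 0, and the named genes whose call was lost with it are given as such.

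The regulators of TFEB and TFE3 at the lysosome had log2 fold changes from -0.49 to 1.35. Of 24 genes for nutrient sensing and phosphorylation, 8 were lower, 4 were higher and 12 did not pass the test, with a median log2 fold change of -0.16. With pan-leukocyte scaling none was lower and 7 were higher. The 4 rises became 2 with DESeq2, with RLE factors, with no filter and without any mouse but PTEC DN RAR mouse 1. The clearest rise was in Rragd, a Rag GTPase that carries these factors to mTORC1 and is itself a known target of the family. Rragd was at 18.0, 11.6 and 15.6 CPM in Cre– controls, against 35.1, 33.3 and 46.5 CPM in PTEC DN RAR mice. Its groups were far apart (log2 fold change 1.35 ± 0.18, adjusted p = 0.0010), and the rise passed the test under every setting tried. The 6 thick ascending limb and 12 proximal tubule markers were all higher in the same libraries. Their part in the rise of Rragd was not tested. Map4k3, a kinase of the amino acid response, rose from 27.0 ± 1.76 to 37.3 ± 0.947 CPM (0.47 ± 0.09, adjusted p = 0.00415). Prkaa1, a catalytic subunit of the energy sensor AMPK, fell from 57.1 ± 5.83 to 40.7 ± 2.12 CPM (-0.49 ± 0.10, adjusted p = 0.00537), and Lamtor3 of the Ragulator scaffold fell from 24.0 ± 1.22 to 17.4 ± 0.479 CPM (-0.47 ± 0.10, adjusted p = 0.00616). Both of these falls were lost with pan-leukocyte scaling. Flcn, whose product folliculin passes the nutrient signal to the Rag GTPases, measured 65.9 ± 5.77 and 58.9 ± 4.72 CPM and did not pass (adjusted p = 0.219).

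Of 8 genes for calcium release, calcineurin and nuclear transport, 3 were lower and none higher (median -0.17), whereas pan-leukocyte scaling gave 1 lower and 2 higher. Xpo1, the exportin that returns TFEB to the cytoplasm, was at 98.3, 155 and 146 CPM in Cre– controls, against 73.3, 85.6 and 81.0 CPM in PTEC DN RAR mice. The groups did not overlap although Cre– control 1 was well below the other controls, and the log2 fold change was -0.73 ± 0.16 (adjusted p = 0.00781). Ppp3cb, a calcineurin catalytic subunit, fell from 90.7 ± 4.46 to 68.9 ± 4.15 CPM (-0.40 ± 0.08, adjusted p = 0.00677), a call lost with pan-leukocyte scaling. Mcoln1, the lysosomal calcium channel upstream of calcineurin and a CLEAR gene itself, was at 35.6 ± 2.29 and 40.0 ± 1.86 CPM (0.17 ± 0.09, adjusted p = 0.16) and passed as higher with pan-leukocyte scaling (0.39).

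The known inducers of Tfec in macrophages were 7 genes, of which 3 were lower and none higher (median -0.05), or 1 lower and 2 higher with pan-leukocyte scaling. Il4ra, the signalling chain of the IL-4 and IL-13 receptors, was at 390, 344 and 446 CPM in Cre– controls, against 230, 209 and 216 CPM in PTEC DN RAR mice. All PTEC DN RAR mice lay below all Cre– controls, with a log2 fold change of -0.85 ± 0.11 (adjusted p = 0.000813) that passed under every setting. Stat6, the transcription factor activated by this receptor, fell from 273 ± 2.08 to 224 ± 6.68 CPM (-0.29 ± 0.08, adjusted p = 0.0168), a call lost with pan-leukocyte scaling. Spi1, which encodes PU.1, was at 359 ± 26.4 and 363 ± 33.0 CPM with overlapping groups (0.01 ± 0.10, adjusted p = 0.928).

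The CLEAR network was followed in 4 lists of target genes with 74 genes in all. To show the core sequence described for the family, stretches upstream of the start site are given for 5 of them (RefSeq, GRCm38.p6), with CACGTG in capitals. Binding was not measured. Lamp1 (chr8:13159080-13159160, plus strand) and Mcoln1 (chr8:3500428-3500499, plus strand) are textbook direct targets, Gla (chrX:134601174-134601252, minus strand) and Ctsd (chr7:142387900-142387945, minus strand) are the hydrolases with the largest falls, and Ctsf (chr19:4855066-4855111, plus strand) is the hydrolase that rose most.
Lamp1: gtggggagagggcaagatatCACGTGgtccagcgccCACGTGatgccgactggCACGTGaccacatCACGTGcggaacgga
Mcoln1: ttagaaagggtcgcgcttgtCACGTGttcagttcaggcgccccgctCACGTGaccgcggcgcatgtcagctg
Gla: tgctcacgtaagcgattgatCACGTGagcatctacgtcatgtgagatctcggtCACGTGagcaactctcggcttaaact
Ctsd: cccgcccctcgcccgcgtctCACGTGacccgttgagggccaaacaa
Ctsf: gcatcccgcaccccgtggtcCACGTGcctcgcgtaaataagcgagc
The stretch of Lamp1 holds 4 copies of CACGTG, those of Mcoln1 and Gla hold 2 each, and the copy shown for Ctsd is the nearer to the start site of 2 in its window. CACGTG is its own reverse complement, so both strands give the same sites. Of the 59 CLEAR genes found in the promoter table, 20 (33.9%) had CACGTG in a window, against 8.09% of all genes. The longer TCACGTG, which contains CACGTG, was in 18 of them (30.5%, against 4.29% of all genes), and TCATGTG was in 7 (11.9%, against 4.31%). Ctsf had CACGTG without the longer TCACGTG. Of the 20 CLEAR genes with CACGTG, 5 were lower and 1 was higher (median log2 fold change -0.08), and of the 39 without it, 6 were lower and 2 higher (median -0.12).

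Across the 4 CLEAR lists, 15 of 74 genes (20.3%, against 17.1% of all genes) were lower and 4 (5.41%, against 23.6%) higher, with a median log2 fold change of -0.11. With pan-leukocyte scaling the balance turned, to 4 lower (5.41%, against 4.43% of all genes) and 15 higher (20.3%, against 32.6%). The lysosomal hydrolases held the widest range. Of the 26 tested, 7 were lower, 2 higher and 17 not called (median -0.12), whereas pan-leukocyte scaling gave 4 lower and 7 higher. Gla, which encodes alpha-galactosidase A, was at 105, 80.1 and 100 CPM in Cre– controls, against 41.7, 35.1 and 45.4 CPM in PTEC DN RAR mice. Its highest PTEC DN RAR value was well under its lowest control (-1.22 ± 0.13, adjusted p = 0.000398). Ctsd, the aspartic protease cathepsin D, was among the most abundant, at 5712, 3962 and 5479 CPM in Cre– controls, against 2456, 1778 and 2532 CPM in PTEC DN RAR mice. Its groups did not overlap (-1.16 ± 0.19, adjusted p = 0.0022). Against these falls, Ctsf, the cysteine protease cathepsin F, rose from 23.7, 26.5 and 26.1 CPM to 59.0, 50.7 and 59.7 CPM (1.15 ± 0.10, adjusted p = 0.000203). The changes of Gla, Ctsd and Ctsf passed the test under every setting tried. Neu1, the lysosomal sialidase, was at 117 ± 19.9 and 155 ± 19.4 CPM (0.41 ± 0.14, adjusted p = 0.0465), a rise that was lost, among other settings, with RLE factors and without Cre– control 2 or 3 or PTEC DN RAR mouse 2 or 3.

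Most genes of the v-ATPase proton pump, which acidifies the lysosome, did not pass the test, with 2 lower and none higher of 16 (median -0.14), a count that was 5 without Cre– control 2 and 1 without Cre– control 3 or PTEC DN RAR mouse 1 or 2. Atp6v1b2 went from 363 ± 21.3 to 273 ± 10.4 CPM (-0.41 ± 0.09, adjusted p = 0.00635) and Atp6v1c1 from 92.4 ± 9.24 to 74.5 ± 1.42 CPM (-0.31 ± 0.09, adjusted p = 0.026). Both falls were lost with pan-leukocyte scaling, which left none lower and 1 higher, and that of Atp6v1c1 also without Cre– control 3 or PTEC DN RAR mouse 1 or 2. Of 14 lysosomal membrane genes, 3 were lower and none higher (median -0.10), and 5 were lower with DESeq2 or RLE factors. Lamp1, a major glycoprotein of that membrane, fell from 2220 ± 292 to 1655 ± 74.5 CPM (-0.42 ± 0.12, adjusted p = 0.0251), and Ostm1, the partner of the chloride transporter CLC-7, fell from 85.6 ± 3.80 to 63.8 ± 0.869 CPM (-0.42 ± 0.08, adjusted p = 0.0034). Neither passed with pan-leukocyte scaling, which gave none lower and 2 higher, and Lamp1 also failed without Cre– control 1 or 3 or PTEC DN RAR mouse 1 or 2, each of which left 1 gene of the list lower.

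Of 18 autophagy and fusion genes, 3 were lower, 2 higher and 13 not called on the TMM scale (median -0.04). Over all genes, 17.1% were lower and 23.6% higher. The 3 falls became 5 without Cre– control 2 and 1 without PTEC DN RAR mouse 2, and 6 with DESeq2 or RLE factors, while pan-leukocyte scaling gave none lower and 5 higher. Gabarapl1, an ATG8-family protein of the autophagosome membrane, rose from 140, 101 and 110 CPM in Cre– controls to 254, 236 and 319 CPM in PTEC DN RAR mice (1.20 ± 0.15, adjusted p = 0.000759). The rise passed the test under every setting tried. As for Rragd, it came in libraries in which all tubular markers were higher, and their part in it was not tested. Map1lc3a, another ATG8-family gene, rose from 15.8 ± 4.13 to 25.7 ± 1.09 CPM (0.69 ± 0.17, adjusted p = 0.0126), a call lost without Cre– control 3. Uvrag and Nrbf2 both encode partners of the Beclin 1 lipid kinase complex. Uvrag fell from 112 ± 7.04 to 84.5 ± 6.44 CPM (-0.41 ± 0.09, adjusted p = 0.00805), and Nrbf2 from 6.95 ± 0.784 to 4.97 ± 0.432 CPM (-0.48 ± 0.16, adjusted p = 0.0382). Both falls were lost with pan-leukocyte scaling, and that of Nrbf2 also, among other settings, whichever library was left out except Cre– control 1. Sqstm1, the autophagy receptor p62 and a direct TFEB target, was at 425 ± 61.2 and 408 ± 34.6 CPM (adjusted p = 0.728).

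**Figure D4:**
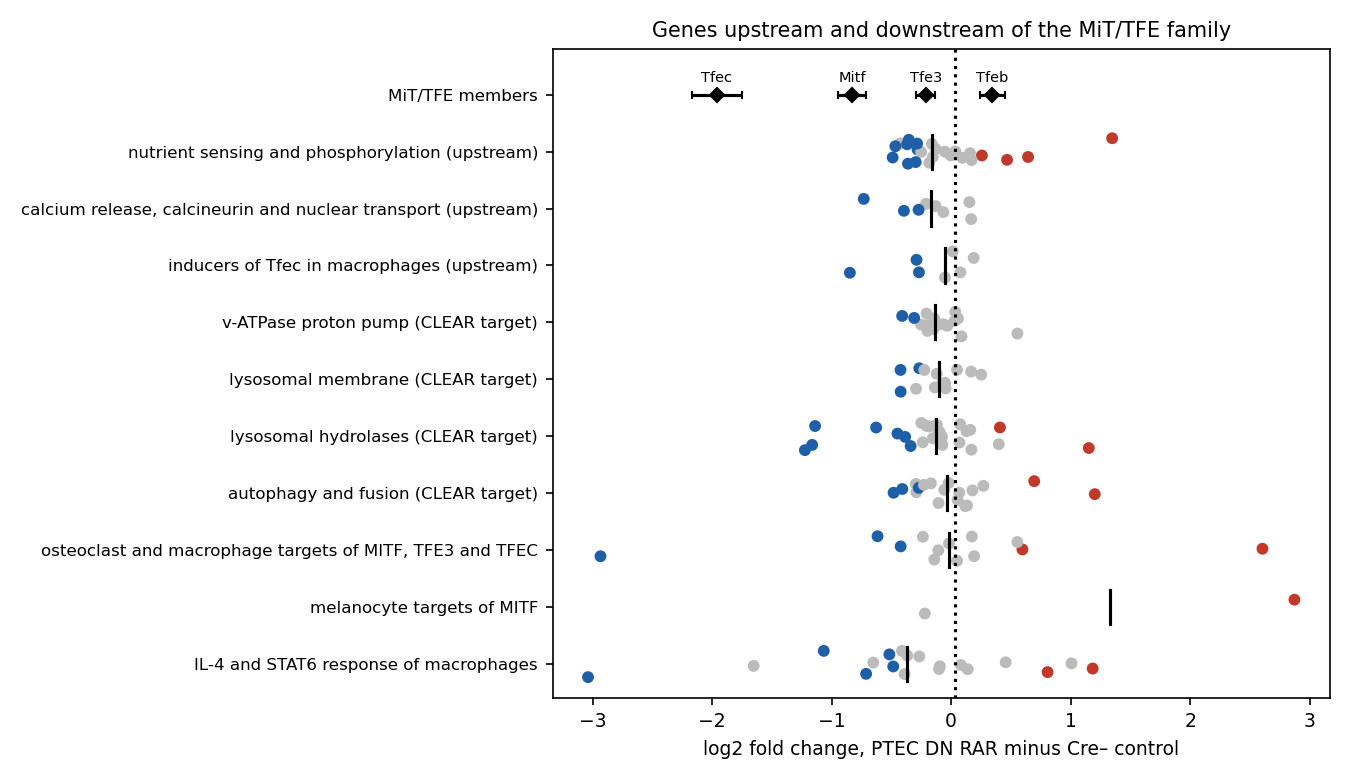
Log2 fold change between PTEC DN RAR mice and Cre– controls (x axis, TMM scaling, linear) of genes in 10 lists around the MiT/TFE family (y axis). Dots are genes, blue for lower and red for higher at an edgeR adjusted p under 0.05 and grey for not called; the vertical spread of dots has no meaning. Diamonds with bars in the top line are the 4 members with their SE, shown without a test, black ticks are list medians and the dotted line is the median of all 15440 genes at 0.04. Most dots lie near the dotted line, with Alox15 and Gpnmb far to its left and Calcr and Slc24a5, both below 1 CPM in every library, far to its right; Tfe3 and the medians of 8 lists changed sign under pan-leukocyte scaling.

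Among 15 osteoclast and macrophage targets described for MITF, TFE3 or TFEC, 13 were tested, with 3 lower, 2 higher and a median of -0.02 (2 lower and 4 higher with pan-leukocyte scaling), and Oscar and Slc9b2 fell under the filter. Gpnmb, a transmembrane glycoprotein of macrophages and melanocytes, was at 263, 135 and 256 CPM in Cre– controls, against 33.6, 25.7 and 26.2 CPM in PTEC DN RAR mice. It had the widest separation of the list, 7.65-fold lower (-2.93 ± 0.25, adjusted p = 0.000208), and passed under every setting. Like Tfec it was lowest in Cre– control 2 within the control group. Tnfrsf11a, the receptor RANK, fell from 98.9 ± 12.6 to 64.5 ± 3.35 CPM (-0.62 ± 0.11, adjusted p = 0.00277). Ostm1, counted here too, was the other gene that fell. Src, a tyrosine kinase needed for bone resorption, rose from 10.2 ± 2.52 to 15.5 ± 2.46 CPM (0.60 ± 0.20, adjusted p = 0.0398), a call lost with RLE factors and without Cre– control 2 or 3 or PTEC DN RAR mouse 1 or 3. The other rise was in Calcr, the calcitonin receptor, at 0.118 ± 0.0465 and 0.739 ± 0.174 CPM.

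The enzymes by which osteoclasts are recognised did not follow Gpnmb. Acp5, the tartrate-resistant acid phosphatase, was at 94.8, 68.2 and 77.2 CPM in Cre– controls, against 100, 111 and 63.6 CPM in PTEC DN RAR mice. The groups overlapped, with both the highest and the lowest value in PTEC DN RAR mice (0.19 ± 0.20, adjusted p = 0.476). Ctsk, cathepsin K, was at 2.25 ± 0.0784 and 2.09 ± 0.746 CPM (-0.11 ± 0.28, adjusted p = 0.782). Csf3r, the G-CSF receptor reported as a TFEC target, was at 170 ± 15.2 and 154 ± 19.2 CPM with overlapping groups (-0.14 ± 0.11, adjusted p = 0.346).

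Melanocyte targets of MITF were all below 1 CPM in every library. Tyr, Tyrp1 and Dct, the pigment enzymes, had 0 reads in all 6 libraries, which allows a level of up to 0.0645 to 0.102 CPM in each. Mlana, Trpm1 and Slc45a2 fell under the filter, and Pmel was below 0.7 CPM in every library. Slc24a5 was the 1 of 2 tested genes that passed, at 0.0447 ± 0.0525 and 0.379 ± 0.0393 CPM, with no read in Cre– control 2.

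Genes of the IL-4 and STAT6 response of macrophages were included because this pathway induces Tfec. Of 19 genes, 5 were lower, 2 higher and 12 not called, and the median log2 fold change of -0.37 was the lowest of the 10 lists. Without PTEC DN RAR mouse 1, 3 of them were lower, and pan-leukocyte scaling gave 3 lower and 3 higher. Alox15, a lipoxygenase, was at 13.6, 70.8 and 14.9 CPM in Cre– controls, against 5.50, 4.88 and 1.72 CPM in PTEC DN RAR mice. Its control mean rested on 1 high library, Cre– control 2, without which the log2 fold change moved from -3.04 (adjusted p = 0.00938) to -1.86 and still passed the test. Chil3, a chitinase-like protein secreted by macrophages, was at 226, 248 and 207 CPM in Cre– controls, against 91.5, 78.3 and 155 CPM in PTEC DN RAR mice. The groups did not overlap, with PTEC DN RAR mouse 3 nearest to the controls (-1.07 ± 0.23, adjusted p = 0.00689), and reads shared with its close paralog Chil4 may be missing from the count. Flt1, the VEGF receptor 1, rose from 15.4 ± 2.71 to 35.0 ± 3.16 CPM (1.18 ± 0.14, adjusted p = 0.000605), in the same libraries in which all 7 endothelial markers were higher.

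To find genes whose pattern over the 6 libraries was nearest to a member, log2 CPM profiles were centred on their mean and compared by Euclidean distance among 8991 genes with a mean of at least 10 CPM. All profiles share the 6 libraries and the genotype difference, so nearness is a description. The 5 genes nearest to Tfec were Thbs1, Ier3, B430306N03Rik, Treml2 and Flrt3. Thbs1, which encodes the matrix glycoprotein thrombospondin 1, was at 1714, 1108 and 1996 CPM in Cre– controls, against 436, 350 and 533 CPM in PTEC DN RAR mice (distance 0.261). It shared with Tfec the low value of Cre– control 2 and the high value of Cre– control 3. Ier3, an immediate early response gene, was at 165, 100 and 182 CPM and at 41.5, 31.9 and 50.8 CPM (distance 0.329). The remaining 3 were at distances of 0.450 to 0.476 and had log2 fold changes of -1.99 to -1.63. With a minimum of 1 CPM 3 of the 5 stayed nearest, and with Pearson correlation in place of distance none did.

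The 5 genes nearest to Mitf were S100a11, Ckap4, Atf3, Pim1 and Sde2, at distances of 0.136 to 0.158. Atf3, a transcription factor of the stress response, was at 1019, 922 and 967 CPM in Cre– controls, against 551, 490 and 579 CPM in PTEC DN RAR mice. Pim1, a serine/threonine kinase, was at 454, 393 and 441 CPM and at 260, 218 and 289 CPM. Within each genotype Atf3 and Pim1 had their lowest value in replicate 2 of that group, as did Mitf. All 5 of these genes stayed nearest with a minimum of 1 CPM, and none with Pearson correlation.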

How the data were processed

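RNA was measured in CD11B+ renal cells of 6 mice, 1 library each. According to the submitters' processing notes, the authors used STAR 2.5.0a, HTSeq 0.6.1, edgeR and limma with GRCm38, and deposited raw read counts per Ensembl gene. The annotation release and strand setting are not given in the sources used here. Between 42.93% and 47.75% of alignments per library were not unique and fell outside the gene counts. Of 46612 gene lines, 9 repeats were collapsed and 27 symbols turned into dates were restored. Lengths and coordinates come from GENCODE M21.

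The deposited counts were filtered with filterByExpr, scaled by TMM (factors 0.959 to 1.02) and tested with the quasi-likelihood test of edgeR 4.0.16 (R 4.3.3), p-values being adjusted over 15440 genes by Benjamini-Hochberg with a threshold of 0.05. Every adjusted p of a single gene comes from this fit. The SE is the size of the log2 fold change divided by the square root of F. The procedure was run on simulated counts in which far fewer genes changed than were called here, in equal numbers up and down. That run does not bear on the choice of scaling, and its outcome is not given here. Profiles used log2 CPM with a prior count of 2, and pairs of members log2 RPKM with 0.01 added. Libraries of 1 genotype differed by a chi-square per degree of freedom of at least 27.1, so none was entered more than once. That the 3 libraries of a group are separate mice is taken from the labels.

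The members and lists were chosen with earlier results of these data known. Named genes are the 4 members, up to 2 with the largest fall and 2 with the largest rise per list among called genes with a mean of at least 5 CPM, 11 known targets and regulators whether called or not, and the 5 genes nearest to Tfec and to Mitf. Calcr, Slc24a5, Itgam, Csf1r and the marker genes were named in addition. Alternatives were DESeq2 1.42.0, limma-voom 3.58.1, RLE factors, library size, pan-leukocyte scaling, no filter, at least 10 counts in every library, a replicate block, transcript length and leaving out each mouse. Promoter windows are from RefSeq. Python 3.11 was used with scipy 1.17.1 for exact tests, numpy 2.4.6 and pandas 2.3.3 for tables and matplotlib 3.10.9 for figures. Protein sequences were not analysed here. 1 gene of the IL-4 and STAT6 list is not reported here.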

Additional observations from a re-analysis of the deposited data

How the results depend on the processing

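Across the alternatives the log2 fold change ranged from -2.20 to -1.73 for Tfec, -0.98 to -0.59 for Mitf, 0.25 to 0.57 for Tfeb and -0.30 to 0.014 for Tfe3. The reversal of Tfe3 came with pan-leukocyte scaling, which gave -0.59 for Mitf and 0.57 for Tfeb. Leaving out 1 mouse gave -0.30 to -0.18 for Tfe3. For levels, the longest transcript gave -1.30 for Mitf minus Tfeb and 0.32 for Tfeb minus Tfe3 (exact permutation test, adjusted p = 0.0938), and Cre– controls alone gave 0.22 for Mitf minus Tfeb. Without 1 mouse, Mitf minus Tfe3 ran from -0.85 to -0.68 and Tfeb minus Tfe3 from -0.47 to -0.33, where 5 mice cannot give an exact p under 0.0625.

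Pan-leukocyte scaling gave 684 genes lower (4.43%) and 5035 higher (32.6%) over the whole table, against which the list counts are to be read. It gave 0 lower and 7 higher for nutrient sensing, 1 and 2 for calcium and calcineurin, 1 and 2 for inducers of Tfec, 0 and 1 for the v-ATPase, 0 and 2 for lysosomal membrane, 4 and 7 for hydrolases, 0 lower and 5 higher for autophagy, 4 higher for osteoclast targets, and 3 lower for the IL-4 response. Of 26 named list genes that passed, 10 lost the call with this scaling, and 13 kept it under all settings. DESeq2 and RLE factors each gave 2 higher for nutrient sensing, 5 lower for lysosomal membrane and 6 lower for autophagy, and RLE also 1 higher for hydrolases and 1 for osteoclast targets. No filter gave 2 higher for nutrient sensing, 5 lower for autophagy and 8 lower for the IL-4 response. With at least 10 counts in every library, osteoclast targets had 1 higher and melanocyte targets 0. The cause of these shifts was not tested.

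Without 1 mouse, the counts ran from 2 to 3 higher for nutrient sensing, 1 to 5 lower for the v-ATPase, 1 to 3 lower and 0 to 1 higher for lysosomal membrane, 1 to 2 higher for hydrolases, 1 to 5 lower and 1 to 3 higher for autophagy, 1 to 2 higher for osteoclast targets, and 3 to 7 lower for the IL-4 response. The replicate numbers were not taken as pairs in the main fit. Deviations from the group means had correlations of -0.015, 0.211 and 0.029 between same-numbered libraries. Between differently numbered libraries they were -0.181 to 0.151. So few values cannot settle whether the numbers pair the mice. With the replicate number as a block, 2606 genes were lower and 3612 higher, the log2 fold change of Tfec was -1.93, the v-ATPase had 1 higher and hydrolases 1 higher, and among named list genes Neu1 and Nrbf2 lost their calls. Depth limits Calcr and Slc24a5 in Cre– controls and the other melanocyte genes except Pmel in all libraries, which lie near the value of 3 reads or below it, while each member rests on at least 254 reads per library.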

Other observations

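The genes nearest in profile to Tfeb and Tfe3 lay outside the rule for named genes and were looked up after their values were seen. Nearest to Tfeb was Galt, the enzyme galactose-1-phosphate uridylyltransferase, at 21.0, 16.8 and 16.7 CPM in Cre– controls, against 24.8, 21.9 and 23.5 CPM in PTEC DN RAR mice (distance 0.0601), followed by Tmem62, Idh3g, 2410015M20Rik and Mrps12. Like Tfeb, Galt was highest in replicate 1 of each genotype. Nearest to Tfe3 were Psmd5, Pigu, Selk, Commd3 and Nfkbie, at distances of 0.0430 to 0.0648. Tfe3 per 1000 CPM of pan-leukocyte genes was 7.26 to 8.27 in Cre– controls, against 7.33 to 8.88 in PTEC DN RAR mice, so that the groups overlapped.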
